A study of Mus musculus with 2 samples.

Results

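Apoc1 and Apoe encode apolipoprotein C1 and apolipoprotein E, and their UMI counts were followed through every cell of mouse mammary tissue that was regenerating after transplantation. These are 2 of the 27998 genes in the count table, described over 354 cells, of which 268 were in the control library (Ctrl, labelled WT) and 86 in the Fgfr2 KO library. Apoc1 was picked for description because its Fgfr2 KO to Ctrl ratio was high in basal keratin cells. Its difference between the libraries is therefore a description here and supports nothing. The pick also favoured a high Apoc1 level in Fgfr2 KO basal cells, so comparisons that rest on that level are descriptions too.

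In the study, basal cells of Fgfr2+/+ mice (Ctrl) or Fgfr2 fl/fl mice (Fgfr2 KO), all carrying the R26R mT/mG reporter, were exposed to adenovirus-Cre-GFP. The luminal partner cells were Fgfr2+/+ and carried the reporter in its red form. Both were injected together into fat pads, cleared of their own epithelium, of female nude (nu/nu) mice aged 3 weeks. Cells were recovered 5 days after surgery under fluorescence, purified by FACS and run on the 10x Genomics platform. Nude mice largely lack T cells but keep other immune cells. In the Fgfr2 KO graft the deletion was made in the donor basal cells only. The paper reports that many Fgfr2 null basal cells turned luminal in such grafts at a later time. The keratin class of a cell therefore does not tell whether it carried the deletion. Each group was 1 library, so that no test between the groups was possible and every interval given covers counting error only.

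Apolipoprotein E is a secreted lipid carrier that binds lipoprotein receptors on cells and takes cholesterol and phospholipid out of cells. Macrophages are a well known source of it outside the liver, and its gene responds to the sterol-sensing LXR receptors. Apolipoprotein C1 is a small exchangeable apolipoprotein of the same gene cluster that hinders the uptake of lipoproteins by such receptors and is also known from liver and macrophages. Mammary epithelium consists of basal (myoepithelial) cells with keratins 5 and 14 and luminal cells with keratins 8 and 18, and handles lipid in quantity when it makes milk.

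The coding sequences are given because the assignment of UMIs to one or the other gene rests on how far the transcripts differ. Both genes lie on the minus strand of chromosome 7 of GRCm38 (GENCODE M21), Apoe at chr7:19696109-19699188 and Apoc1 downstream of it at chr7:19689481-19692660, with 3448 bases between them. The Apoc1 coding sequence has 267 bases (88 codons before the stop) in a transcript of 432 bases and 4 exons, and that of Apoe has 936 bases (311 codons) in a transcript of 1128 bases and 4 exons. Apoc1 is shown whole, with its start and stop codons in capitals, and of Apoe the last 300 bases, from base 637 of the coding sequence, with the stop codon in capitals.

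Apoc1: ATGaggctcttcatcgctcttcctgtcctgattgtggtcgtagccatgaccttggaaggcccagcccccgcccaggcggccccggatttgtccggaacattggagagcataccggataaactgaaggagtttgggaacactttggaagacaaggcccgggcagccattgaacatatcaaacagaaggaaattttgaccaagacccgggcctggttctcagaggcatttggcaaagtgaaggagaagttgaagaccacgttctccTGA

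Apoe: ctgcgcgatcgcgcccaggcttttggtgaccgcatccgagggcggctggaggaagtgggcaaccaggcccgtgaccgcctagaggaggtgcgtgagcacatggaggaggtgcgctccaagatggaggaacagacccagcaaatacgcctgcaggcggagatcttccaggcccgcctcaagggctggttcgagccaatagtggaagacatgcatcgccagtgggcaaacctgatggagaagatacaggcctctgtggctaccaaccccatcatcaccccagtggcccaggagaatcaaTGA

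The longest run of bases that the 2 transcripts share on the same strand was 10 bases, and the coding GC content was 53.2% in Apoc1 and 62.5% in Apoe. Levels below are UMIs per 1000000 UMIs (CPM) summed over the cells of a class, or UMIs per 10000 in single cells. Levels of one gene are compared between classes, and no comparison is made between the levels of the 2 genes, since the values are not scaled for length.

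Cells were put in classes in a fixed order. A cell with at least 1 Ptprc UMI (the leukocyte antigen CD45) was immune, a remaining cell with Col1a1 and Col3a1 at 10 or more UMIs per 10000 was fibroblast-like, and the others were basal keratin or luminal keratin by whether Krt14 and Krt5 or Krt8 and Krt18 had more UMIs. This gave 67 basal keratin, 110 luminal keratin, 73 immune and 11 fibroblast-like cells in Ctrl and 22, 28, 23 and 3 in Fgfr2 KO, with 7 and 10 cells at a tie left without a class. The labels call the material epithelial cells, whereas 96 of the 354 cells carried Ptprc. Ctrl held 5457734 UMIs with a median of 16261.5 per cell and Fgfr2 KO 1252189 with a median of 10484.5, and the libraries shared 0 barcodes.

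The class limits were soft for some cells. Of the 96 immune cells, 47 had exactly 1 Ptprc UMI, and 9 had fewer than 5 UMIs per 10000 of 6 pan-leukocyte markers (Tyrobp, Fcer1g, Laptm5, Coro1a, Cd52, Cd53). Conversely, 20 of the 227 keratin cells had 5 or more of these, 33 had fewer than 10 keratin UMIs per 10000, and in 30 the keratin pairs were within 2-fold of each other. Outside the immune class only 4 cells had Col1a1 and Col3a1 between 5 and 20 per 10000. After these values were seen, a stricter set was added, here called marker-filtered classes: immune cells by 5 or more pan-leukocyte UMIs per 10000, and keratin classes only with 10 or more UMIs of the 4 keratins per 10000. It held 65 basal, 96 luminal and 81 immune cells in Ctrl and 17, 21 and 41 in Fgfr2 KO, and 80 of the 89 basal, 113 of the 138 luminal and 87 of the 96 immune cells kept their class.

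In the marker-filtered set the genes used to form the classes had to differ between them, and of those named here Krt14, Krt8 and Tyrobp were so used while Acta2 and Lyz2 were not. Krt14 stood at 2547 CPM in basal against 457 in luminal cells of Ctrl, and at 3373 against 158 in Fgfr2 KO. Acta2, the smooth muscle actin of myoepithelium, stood at 2194 and 3797 CPM in basal cells, and Krt8 at 2628 and 2194 CPM in luminal cells. The macrophage lysozyme Lyz2 reached 14899 and 6777 CPM and the myeloid adaptor Tyrobp 2121 and 1837 CPM in immune cells. The T cell receptor genes Cd3e and Cd3g had no UMI in any class, and neither had the adipocyte hormone Adipoq.

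Apoe was highest in immune cells, intermediate in basal keratin cells and lowest in luminal keratin cells of both libraries. Ctrl immune cells held 12212 Apoe UMIs, 9791 CPM (95% Poisson interval 9618 to 9967), and Fgfr2 KO immune cells 2752 UMIs, 10140 CPM (9765 to 10526). The basal keratin level was 2198 CPM (2117 to 2281) in Ctrl, beside 2155 CPM (1997 to 2322) in Fgfr2 KO. The luminal keratin values were 917 CPM (881 to 954) and 758 CPM (688 to 833). Basal cells therefore held 2.40 times the luminal level in Ctrl and 2.84 times in Fgfr2 KO, and 0.224 and 0.213 times the immune level, with no overlap of the counting intervals between the 3 classes in either library. The 11 fibroblast-like cells of Ctrl had 1202 CPM, between luminal and basal, and the 3 such cells of Fgfr2 KO 11126 CPM, which are too few for an order.

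In single cells the Apoe levels of the classes overlapped widely. Among basal cells Apoe ran from 2.32 to 143 UMIs per 10000 with a median of 18.6 in Ctrl, and from 0.532 to 98.1 with a median of 14.4 in Fgfr2 KO. Luminal cells had medians of 3.98 and 2.28 with single cells up to 282 and 284, and immune cells medians of 65.5 and 34.9 with a range from 0.656 to 779 in Ctrl and from 0 to 483 in Fgfr2 KO. One cell held 41.6% of the Apoe UMIs of the Fgfr2 KO immune class.

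A few luminal cells with leukocyte genes held a part of luminal Apoe in Ctrl and most of it in Fgfr2 KO. In Ctrl 10 luminal keratin cells had 5 or more pan-leukocyte UMIs per 10000, and these held 836 of the 2465 luminal Apoe UMIs at 10470 CPM. In Fgfr2 KO 5 such cells held 310 of 434 UMIs at 12859 CPM. Leaving these cells out brought luminal Apoe to 624.4 CPM (Ctrl) and 226.1 CPM (Fgfr2 KO). In the marker-filtered classes Apoe stood at 2086 CPM in basal, 633.1 in luminal and 12944.7 in immune cells of Ctrl, and at 2330, 205.2 and 11909.6 CPM in those of Fgfr2 KO. The order of the classes was the same as before, and the basal to luminal ratio became 3.30 in Ctrl and 11.4 in Fgfr2 KO. Over 13 alternative settings the log2 of this ratio ran from 0.66 to 1.82 in Ctrl and from 0.18 to 3.50 in Fgfr2 KO.

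**Figure D1:**
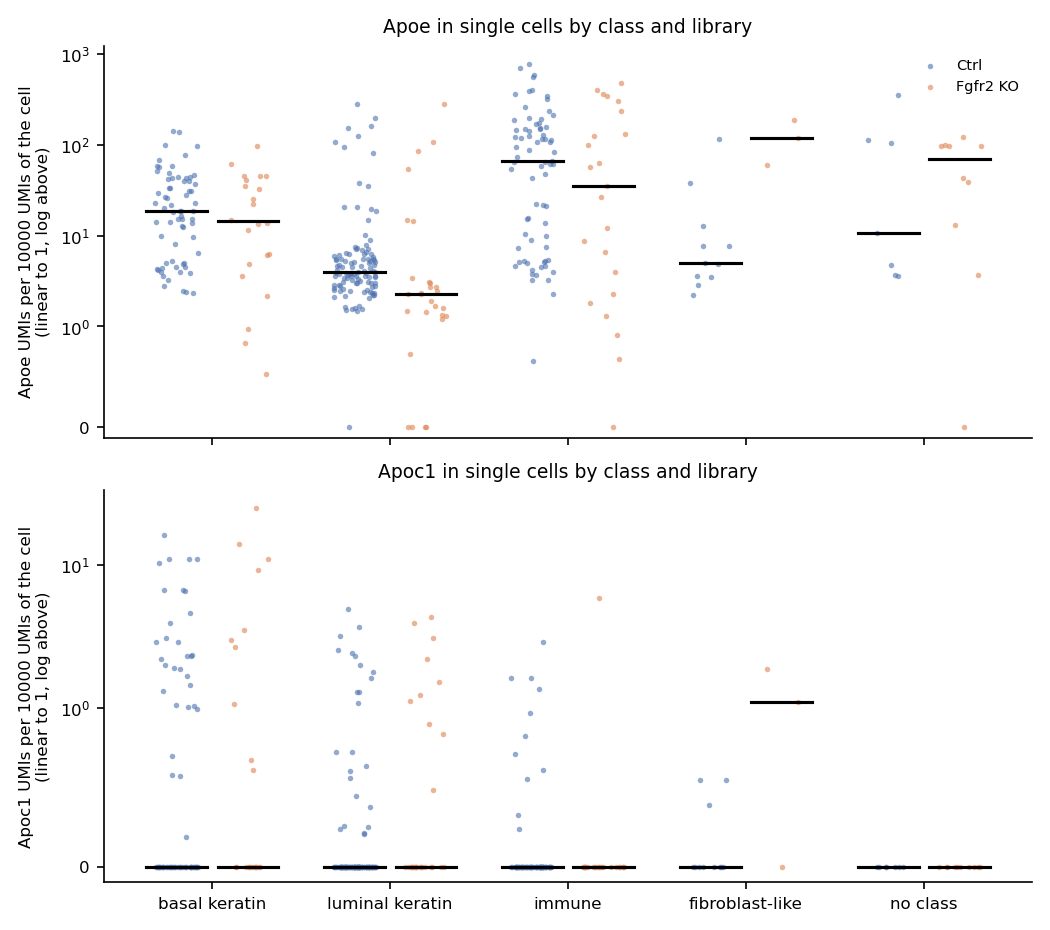
UMIs per 10000 of Apoe and Apoc1 in each cell, by class and library, where each point is 1 cell, the bar is the median over cells and the axes are linear up to 1 and logarithmic above. Median Apoe is 65.5 and 34.9 in immune, 18.6 and 14.4 in basal and 3.98 and 2.28 in luminal cells, whereas the highest Apoc1 cells, at 16.4 and 25.1, are basal.

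Apoc1 had another order: it was highest in basal keratin cells. The 194 UMIs of Ctrl basal cells made 152.8 CPM (132.1 to 175.9), and the 97 UMIs of Fgfr2 KO basal cells 303.8 CPM (246.4 to 370.6). In luminal keratin cells, 83 UMIs gave 30.9 CPM (24.6 to 38.3) in Ctrl and 38 gave 66.4 CPM (47.0 to 91.1) in Fgfr2 KO. The basal level was 4.95 times the luminal one in Ctrl and 4.58 times in Fgfr2 KO. The Ctrl immune class, with 46 UMIs, stood at 36.9 CPM (27.0 to 49.2), which overlapped the luminal interval. That of Fgfr2 KO, with 4 UMIs, stood at 14.7 CPM (4.02 to 37.7), below the luminal interval. Fibroblast-like cells had 3 and 4 UMIs, and the cells without a class none.

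Most Apoc1 UMIs of the Ctrl immune class came from cells with many keratin and few leukocyte UMIs. Of the 46 UMIs, 36 were in 3 cells with 25, 6 and 5 Apoc1 UMIs. Each of these had 1 Ptprc UMI, pan-leukocyte levels of only 1.05, 0.543 and 1.64 per 10000, and keratin levels of 23.2, 7.88 and 31.4 per 10000. They were also deep, with 86044, 36818 and 60854 UMIs. The other 8 Ctrl immune cells with Apoc1 had 1 or 2 UMIs each. All 4 UMIs of Fgfr2 KO immune cells were in 1 cell, which had 204 Apoe UMIs and 43.1 pan-leukocyte and 318 macrophage UMIs per 10000, besides Col1a1 and Col3a1 at 13.4 per 10000.

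In the marker-filtered classes Apoc1 was at 149.7 CPM in basal, 31.8 in luminal and 10.9 (5.44 to 19.5) in immune cells of Ctrl. In Fgfr2 KO it was at 339.4, 66.7 and 13.3 (3.61 to 34.0) CPM. The basal level was then 13.7 times the immune one in Ctrl (counting interval 7.52 to 28.0) and 25.6 times in Fgfr2 KO (9.68 to 95.8), against 4.14 and 20.6 times with the Ptprc class. These Fgfr2 KO values rest on the basal level that the pick of Apoc1 favoured, and support nothing. The luminal level stood above the immune one as well, and the intervals did not overlap.

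Apoc1 was seen in a minority of cells. A UMI was present in 31 of 67 basal cells of Ctrl, 46.3% (exact Clopper-Pearson interval 34.0 to 58.9), and in 10 of 22 of Fgfr2 KO, 45.5% (24.4 to 67.8). The luminal shares were 21.8% (24 of 110) and 35.7% (10 of 28), and the immune shares 15.1% (11 of 73) and 4.35% (1 of 23), at median depths of 15251 and 16369.5 UMIs per basal, 20417 and 17219.5 per luminal and 12228 and 6729 per immune cell. With each cell thinned to 5000 UMIs, and 14 and 19 shallower cells left out, the shares were 38.5% and 36.8% in basal, 11.3% and 33.3% in luminal and 4.41% and 5.88% in immune cells. The thinned immune shares fell to 1.39% and 3.85% in the marker-filtered classes. Apoe was seen in 100% of basal cells of both libraries, in 99.1% and 85.7% of luminal and in 100% and 95.7% of immune cells.

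The Apoc1 to Apoe ratio, in which transcript length cancels between classes, was higher in both keratin classes than in immune cells. Basal keratin cells had 6.95 Apoc1 UMIs per 100 Apoe UMIs in Ctrl (5.98 to 8.05) and 14.1 in Fgfr2 KO (11.3 to 17.5). The Ptprc immune class had 0.377 (0.276 to 0.503) and 0.145 (0.0396 to 0.373). Of its cells, those with high complement C1q, described further on, had 0.0785 (0.0288 to 0.171) and 0.149 (0.0405 to 0.381), and the others 0.876 in Ctrl and no Apoc1 UMI in Fgfr2 KO. Marker-filtered immune cells had 0.0842 and 0.111. Luminal keratin cells had 3.37 (2.67 to 4.19) and 8.76 (6.11 to 12.2), the latter overlapping the basal interval. In the marker-filtered set the luminal ratio was 5.02 and 32.5 beside 7.18 and 14.6 in basal cells, so that the order of the keratin classes in Fgfr2 KO turned. The Ctrl immune cells with fewer than 5 pan-leukocyte UMIs per 10000 had 11.7, a value of the keratin cells' size.

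Droplets can take up free RNA, and 1 free source keeps its genes in 1 ratio in every class, so the share of the immune level that each gene reached in keratin cells was set beside that of 18 macrophage and pan-leukocyte markers. In marker-filtered basal cells Apoe reached 16.1% (15.5 to 16.8) of its immune CPM in Ctrl and 19.6% (18.0 to 21.3) in Fgfr2 KO. The 18 markers reached a median of 1.64% and 0.567% there, with a highest value of 3.25% (Laptm5) and 1.97% (Cd53), and 1 (Adgre1) and 6 of them were at 0. All 18 lay below Apoe in both libraries. Had Apoe been present at the share of the summed macrophage list, 1.72% and 0.784%, basal cells would have had 222.4 and 93.4 CPM, and the measured levels were 9.38 and 24.9 times that.

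The luminal margin was smaller. Luminal Apoe reached 4.89% of the immune CPM in Ctrl and 1.72% in Fgfr2 KO, where the 18 markers had medians of 1.72% and 0.997% and highest values of 2.23% (Csf1r) and 1.62% (C1qc). Measured luminal Apoe was 2.81 and 1.66 times the level at the macrophage share. The filter bounds the 6 pan-leukocyte markers in keratin cells by its construction. With the Ptprc classes, 18 of 18 markers lay below Apoe in basal cells of both libraries (Apoe at 22.4% and 21.2%, highest marker 4.32% and 18.2%). In luminal cells 17 of 18 did so in Ctrl and 11 of 18 in Fgfr2 KO, where measured Apoe was 1.04 times the level at the macrophage share. For Apoc1 the marker-filtered keratin levels exceeded the immune level itself, at 1374% and 2559% in basal and 292% and 502.6% in luminal cells. The basal share in Fgfr2 KO rests on the level that the pick of Apoc1 favoured. With the Ptprc classes basal Apoc1 was at 414.4% and 2061% and Ctrl luminal Apoc1 at 83.7% (57.7 to 122.7), an interval that held the immune level.

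Basal cells without a pan-leukocyte UMI held both genes too. The 16 Ctrl and 9 Fgfr2 KO basal cells with 0 UMIs of the pan-leukocyte list had Apoe at 3591 and 2775 CPM and Apoc1 at 250.3 and 418.3 CPM, both above the levels of all basal cells. Some of these cells had UMIs of the macrophage list, and their depth was not matched to that of the other basal cells. The Apoc1 levels of the 16 and 9 cells rest on 52 and 49 UMIs. Marker-filtered basal cells with 0 pan-leukocyte UMIs held 36 and 48. Keratin cells with no UMI of all 18 markers numbered 1 in Ctrl, with 22 Apoe and 2 Apoc1 UMIs, and 5 in Fgfr2 KO, with 51 Apoe UMIs and 1 Apoc1 UMI together.

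**Figure D2:**
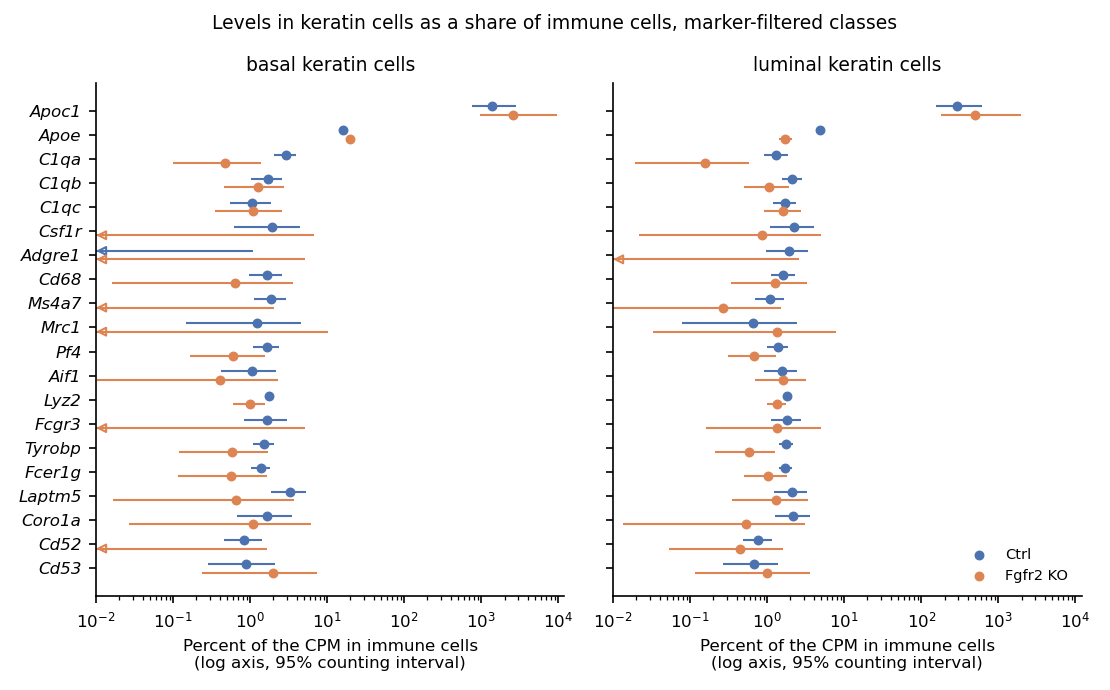
CPM in marker-filtered basal and luminal keratin cells as a percent of the CPM in immune cells of the same library, on a log axis with 95% counting intervals, for Apoc1, Apoe and 18 immune markers, with open arrows for genes at 0 UMIs in the keratin cells. In basal cells Apoe lies at 16.1% and 19.6%, right of all 18 markers, and Apoc1 lies above 100% in both classes.

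Within the basal class Apoc1 and Apoe were high in the same cells. The 8 Ctrl and 4 Fgfr2 KO basal cells with 5 or more Apoc1 UMIs per 10000 all had Apoe at or above 22.7 and 32.9 per 10000, with medians of 54.3 and 53.5 against 15.4 and 12.4 in the other basal cells. Basal cells with an Apoc1 UMI had Apoe at 4007 and 3430 CPM, and those without at 1030 and 950 CPM. Over the 89 basal cells the Pearson correlation of the log levels was 0.61, which ranked Apoe first of 8893 genes for Apoc1. It was -0.01 over the 138 luminal and 0.09 over the 96 immune cells. In the marker-filtered classes it was 0.60 over 82 basal, 0.17 over 117 luminal and 0.14 over 122 immune cells. These are descriptions over cells of 2 libraries that share depth within each cell, and no p is given.

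Few cells carried the basal Apoc1. Of the Apoc1 UMIs of Ctrl basal cells 44.3% lay in 3 cells, and of those of Fgfr2 KO basal cells 61.9% did. The top 5 cells held 55.7% and 89.7%. The highest basal cells had 16.4 and 25.1 Apoc1 UMIs per 10000, while no luminal cell reached 5.

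Among luminal cells both genes were higher in those with more secretory progenitor UMIs (such as Elf5, Kit and Aldh1a3) than in those with more hormone-sensing UMIs (such as Esr1, Pgr and Prlr). Apoe stood at 1213 against 557.6 CPM in the Ctrl cells and at 1414 against 201.4 CPM in the Fgfr2 KO cells, and Apoc1 at 50.6 against 17.1 and 117.8 against 51.6 CPM. The secretory group of Fgfr2 KO held 9 cells. In the marker-filtered classes Apoe was at 791.4 against 515.5 CPM and at 303.9 against 174.6 CPM.

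Within the immune class Apoe went with complement. The 31 Ctrl and 12 Fgfr2 KO immune cells with C1qa, C1qb and C1qc at 10 or more per 10000, genes typical of tissue macrophages, had Apoe at 18779 and 23846 CPM. The other 42 and 11 immune cells had 5437 and 384.7 CPM, so that the cells with high C1q stood 3.45 and 62.0 times higher. In these others the summed 12 macrophage markers stood at 8750 and 2409 CPM, against 30215 and 27958 CPM in the cells with high C1q. This list holds the C1q genes used for the split, which fixes part of the gap. Apoc1 was at 6 and 4 UMIs in the cells with high C1q and at 40 UMIs in the other Ctrl immune cells. It was at 0 UMIs in the other Fgfr2 KO immune cells, where the upper bound of the 95% Poisson interval was 23.3 CPM.

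Between the libraries the Apoc1 level in Fgfr2 KO was higher than in Ctrl in both keratin classes, by 1.99-fold in basal cells (log2 0.99, counting interval 0.62 to 1.35) and 2.15-fold in luminal cells (log2 1.10, 0.51 to 1.67). Of 6799 genes with 20 or more UMIs in basal cells, 4.09% were at least 2-fold higher and 11.3% at least 2-fold lower in Fgfr2 KO, and of 9207 in luminal cells 3.9% and 9.09%. Basal Apoc1, at 1.99-fold, lay just under this limit. In the marker-filtered classes the shares higher were 4.23% in basal and 3.75% in luminal cells, and 8.77% of luminal and 10.4% of immune genes were lower. Since the gene was picked on this ratio, nothing is read from it. The median log2 ratio of all these genes was -0.11 in basal and -0.04 in luminal cells. The basal value came from 97 UMIs, of which 61.9% were in 3 cells, and the share of basal cells with a UMI was nearly the same in both libraries (46.3% and 45.5%).

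Apoe in basal cells had a log2 ratio of -0.03 (-0.15 to 0.09), within counting error of equal levels, but of 0.16 (0.04 to 0.28) in the marker-filtered classes and -0.45 with a minimum of 2 Ptprc UMIs. In luminal cells it was -0.27 (-0.42 to -0.13), and -1.63 (-1.91 to -1.35) in the marker-filtered set. The sign of this luminal ratio turned to 0.42 as a mean over cells and to 0.67 with cells thinned to 5000 UMIs. Immune Apoe had a log2 ratio of 0.05 (-0.01 to 0.11), which was made of 0.34 (0.28 to 0.41) in the cells with high C1q and -3.82 (-4.21 to -3.46) in the others. The cell with 41.6% of the Fgfr2 KO immune Apoe was among those with high C1q, and without the top cell of each group the immune ratio was -0.43. In the marker-filtered cells with high C1q the ratio was 0.02. In the other immune cells the macrophage markers were lower in Fgfr2 KO as well, as given above, and their part in the ratio was not tested. For immune Apoc1 the log2 ratio was -1.32 (-3.26 to 0.13) with the Ptprc class and 0.28 (-1.82 to 2.04) in the marker-filtered class, so that no difference was detectable at this depth.

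**Figure D3:**
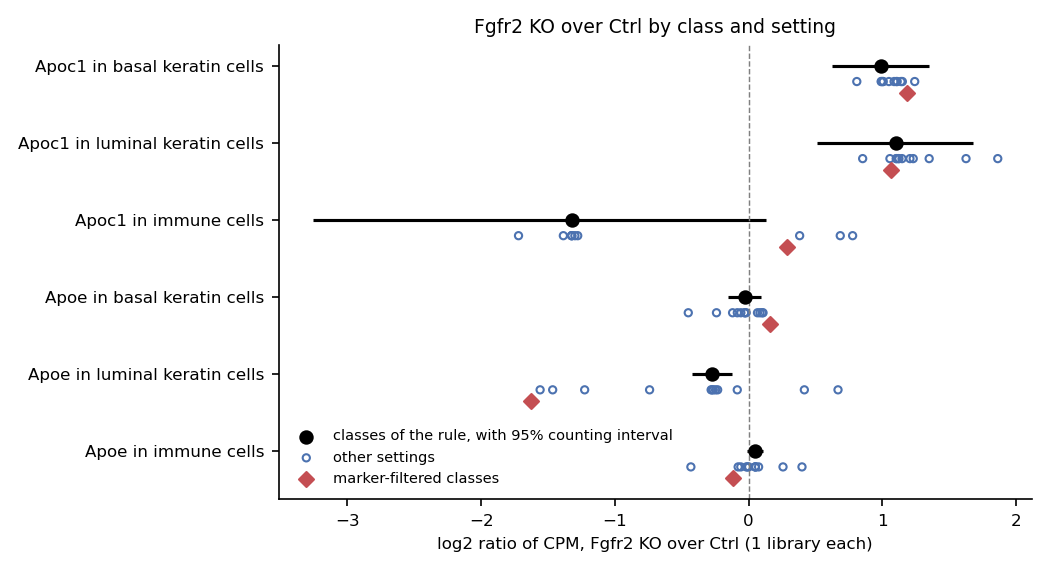
Log2 ratio of CPM in Fgfr2 KO over Ctrl, 1 library each, for Apoc1 and Apoe by class, in the Ptprc classes (filled circles, with 95% counting intervals), under the other settings (open circles) and in the marker-filtered classes (diamonds). Over the alternative settings Apoc1 runs from 0.81 to 1.24 in basal and from 0.85 to 1.86 in luminal cells, and Apoe in luminal cells from -1.63 to 0.67.

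Genes that handle the same lipids were counted in 5 lists of 49 genes in all. At a 2-fold limit, 1 of 27 measured genes was higher and 6 lower in Fgfr2 KO basal cells (median log2 -0.27), beside 4.09% and 11.3% of all genes. In luminal cells 2 of 32 were higher and 5 lower (-0.29), beside 3.9% and 9.09%. In immune cells 3 of 30 were higher and 11 lower (-0.68). Over all 6345 genes measured in immune cells 7.8% were higher and 12.8% lower, with a median of -0.02.

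Of the 13 other apolipoproteins, only 2 were measured in each keratin class. In luminal cells Apod, a lipocalin that carries small lipids, went from 61.0 to 178 CPM (log2 1.55), and Clu, the chaperone apolipoprotein J, from 747.5 to 232.3 CPM (-1.69). In immune cells Clu had a ratio of 1.33, which was -0.24 in the marker-filtered set.

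Among the lipoprotein receptors, in luminal cells Scarb1, the HDL receptor, went from 20.1 to 43.7 CPM and the fatty acid receptor Cd36 from 34.6 to 8.73 CPM. Marker-filtered luminal cells had 15 and 0 Cd36 UMIs, under the minimum of 20. Cd36 in immune cells went from 446.6 to 70.0 CPM (-2.67), and the sorting receptor Sorl1 from 8.02 to 40.5 CPM (2.34), with 6 and 7 UMIs, under the minimum, in the marker-filtered set.

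Of the 10 genes for sterol efflux and LXR, which include known regulators of Apoe, none of 8 measured in luminal cells passed the limit, and 1 of 6 did in basal cells, downward (Rxra, a partner of LXR), beside 9.09% and 11.3% lower among all genes. In the marker-filtered classes 2 of 6 luminal genes were lower, Pltp (log2 -1.55) and Rxra (-1.03), beside 8.77% of all genes. In basal cells 1 of 6 was higher, Srebf1, a regulator of lipid synthesis (1.14), and 1 lower, Rxra (-1.03). Of all genes in those basal cells 4.23% were higher and 12% lower. In immune cells the cholesterol exporter Abcg1 went from 30.5 to 73.7 CPM (1.27) and Nr1h3, which encodes LXR alpha, from 24.9 to 7.37 CPM (-1.75), whereas Pltp, the phospholipid transfer protein, stood at 178.8 and 261.6 CPM.

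The lipid enzymes and storage genes were lower or within the limit in all 3 classes, with 3 of 7, 1 of 7 and 4 of 7 measured genes lower and none higher in basal, luminal and immune cells, beside 11.3%, 9.09% and 12.8% lower among all genes. In the marker-filtered immune cells 2 of 7 were lower, beside 10.4% of all genes. Lpl, lipoprotein lipase, had 24 UMIs in basal cells of Ctrl against 0 in those of Fgfr2 KO, and went from 70.7 to 5.24 CPM in luminal cells (17.5 to 3.51 CPM in the marker-filtered set) and from 821 to 118 CPM in immune cells. The fatty acid binding protein Fabp5 went from 530 to 216 CPM in basal and from 1349 to 280 CPM in immune cells. Plin2, which coats lipid droplets, went from 895 to 416 CPM in immune cells (log2 -1.10, and -0.99 in the marker-filtered set).

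Of the 10 genes of lipid-associated macrophages, 7 were at least 2-fold lower in Fgfr2 KO immune cells, beside 12.8% of all genes, and none higher (median log2 -1.54), while Apoe itself was at 0.05. The glycoprotein Gpnmb went from 752 UMIs to 1 UMI, osteopontin (Spp1) from 2245 to 73 UMIs, galectin 3 (Lgals3) from 6317 to 380 UMIs and the lipid receptor Trem2 from 649 to 60 UMIs. The log2 ratios of the CPM were -7.35, -2.74, -1.85 and -1.23. The Gpnmb ratio rests on that 1 UMI, and in the marker-filtered set Gpnmb went from 812 to 12 UMIs (-4.34). The lysosomal proteases Ctsb and Ctsd had ratios of -0.54 and -0.80. In the same cells C1qa, C1qb and C1qc were higher, at 1963.9, 1518.1 and 1407.6 CPM against 728.8, 594.9 and 591.7 CPM in Ctrl. With 1 library each, a different mix of immune cells and a different level per cell cannot be told apart.

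The genes whose levels ran most like those of Apoc1 over the 227 keratin cells (among 9376 genes) were 1500015O10Rik (r 0.56), Pdlim3 (0.48), Gas1 (0.45), Emid1 (0.44) and Il17b (0.43). Summed over classes, 1500015O10Rik, which encodes the secreted peptide augurin, also stood highest in basal cells, at 332.5 and 191.0 CPM against 65.1 and 48.9 in luminal and 49.7 and 7.37 in immune cells. Those most like Apoe were Cst3 (0.62), the protease inhibitor cystatin C, Pltp (0.55), Fth1 (0.55), Gas1 (0.52) and 1500015O10Rik (0.51). In the marker-filtered keratin cells they were Gas1 (0.68), 1500015O10Rik (0.67), Col16a1 (0.66), Mia (0.66) and Cst3 (0.65). In the Fgfr2 KO keratin cells of the Ptprc classes alone Ctsl (0.69) led.

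In luminal cells alone the genes most like Apoe were myeloid ones, Ms4a7 (0.71), Lgmn (0.70) and Tyrobp (0.69). In the marker-filtered luminal cells Gas1 (0.63) led in their place. Over the 96 immune cells (7648 genes) Apoe ran with Lgmn (0.78), a lysosomal protease, Sepp1 (0.67), Ms4a7 (0.66), C1qc (0.66) and C1qa (0.64). For Apoc1 in immune cells, seen in 12 cells, no likeness can be read.

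Counting Apoc1 and Apoe themselves, 16 genes start within 100 kb of the Apoe start on chromosome 7, of which 13 were in the count table and 10 of these are protein-coding. The nearest other apolipoproteins, Apoc4 and Apoc2, had 6 and 9 UMIs in marker-filtered immune cells over both libraries, 4.58 and 6.86 CPM, and none in keratin cells. Another annotated gene model, Gm44805, overlaps both but is not in the count table, so whether it affected their counts is not known. Bcam, a laminin receptor of the basal cell surface, had the same class order as Apoc1, with 199.3 CPM in basal, 46.7 in luminal and 12.96 in immune cells against 181.9, 38.1 and 11.4 CPM for Apoc1. Basal Bcam was at 169.2 CPM (148.2 to 192.3) in Ctrl, beside 346.4 CPM (281.3 to 422.2) in Fgfr2 KO, and luminal Bcam at 50.8 and 28.1 CPM. Clasrp stood at 9.60, 8.26 and 5.34 CPM, with intervals that overlapped throughout. Tomm40, a mitochondrial import pore, stood at 88.2, 121.4 and 52.6 CPM, Clptm1 at 43.2, 64.2 and 54.9, Cblc at 15.6, 30.5 and 0.763, and the NF-kappaB subunit Relb at 34.2, 41.9 and 52.6 CPM.

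**Figure D4:**
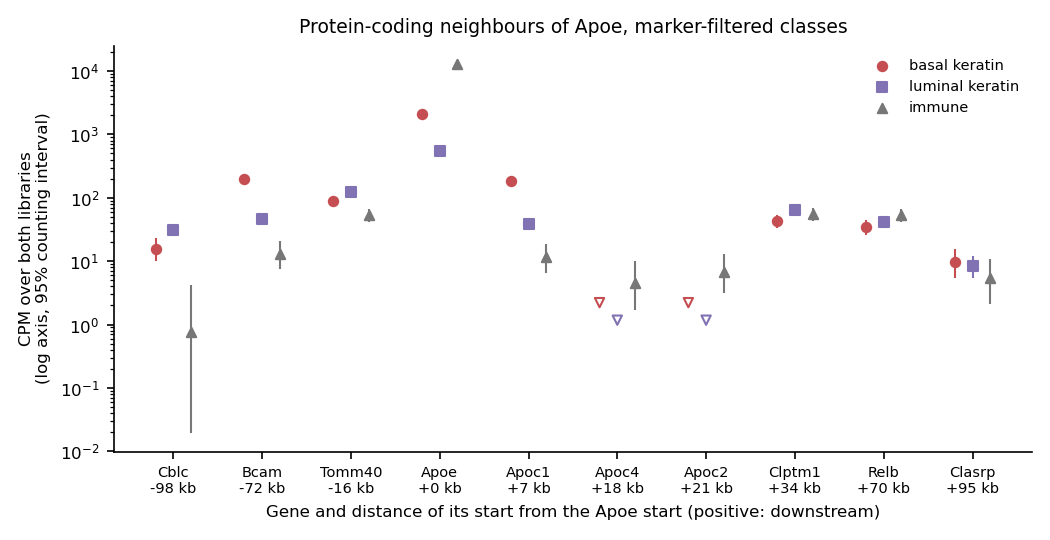
CPM over both libraries, on a log axis with 95% counting intervals, of the protein-coding genes that start within 100 kb of Apoe, by marker-filtered class and in order of distance from the Apoe start, with open triangles at the upper interval bound for genes at 0 UMIs. Apoe is highest in immune cells at 12707 CPM, whereas Apoc1 and Bcam are highest in basal cells at 181.9 and 199.3 CPM.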

How the data were processed

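Single cells of 2 libraries, 1 labelled WT (Ctrl) and 1 labelled Fgfr2 KO, were measured on the 10x Genomics platform. The values are whole-number UMI counts per gene and cell, deposited by the authors as 1 table for both libraries. Per the study's methods they came from Cell Ranger with aggregation of the libraries, and the submitters' processing notes name Cell Ranger 2.1.1 and the build mm10. The annotation is not given in the sources used here. Aggregation can scale libraries to a like depth, and the deposited table held immune cells.

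Apoc1 and Apoe, the classes and the gene lists were chosen with earlier results of these data known. Counts were summed per class and library and divided by the summed UMIs of all genes. Named genes were Apoc1 and Apoe, list members, genes within 100 kb of Apoe, and for each of the pair the 5 genes with the highest Pearson correlation of log levels over keratin cells and over immune cells, among genes with a UMI in 10% or more of the cells. Intervals are exact at 95% (Poisson for a level, Clopper-Pearson for a share, the conditional binomial for a ratio) and cover counting error only. No test was run, since cells are not replicates and each group was 1 library. Ratios between the libraries are given for genes with 20 or more UMIs. Doublets were marked with Scrublet (2 Ctrl and 1 Fgfr2 KO cell, in scanpy 1.11.5) and left in, with an alternative without them. Other alternatives moved the class limits, left out cells over 50000 UMIs or over 25% mitochondrial UMIs, thinned cells to 5000 UMIs, averaged over cells or changed the normalization. The ratio code was tested on simulated counts. Python 3.11.15, numpy 2.4.6, scipy 1.17.1, pandas 2.3.3 and matplotlib 3.10.9 were used. One member of the lipid lists is not reported here.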

Additional observations from a re-analysis of the deposited data

How the results depend on the processing

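Ratios are log2 throughout, and each of 14 was recomputed under 13 alternatives. Of 178 values, 120 stayed inside the counting interval of the value reported, 56 moved outside it and 2 turned a ratio whose interval lay on 1 side of 0. Both were Apoe in luminal keratin cells, Fgfr2 KO over Ctrl, at 0.42 as a mean over cells and 0.67 when thinned to 5000 UMIs. Apoc1, Fgfr2 KO over Ctrl, kept its sign under all 13 alternatives in basal (0.81 to 1.24) and luminal cells (0.85 to 1.86, the highest when thinned). The gene was picked on the basal ratio, so that its kept sign there was largely fixed beforehand and supports nothing. The sign was not kept in immune cells, where Apoc1 was 0.78 thinned, 0.38 without cells over 50000 UMIs, 0.69 as a mean over cells and 0.28 in marker-filtered classes. Its basal to immune ratio in Ctrl went to 3.30, 3.07, 3.52 and 3.78 under these, to 4.46 with a minimum of 2 Ptprc UMIs and to 2.65 without the top cell of each group. With 1 keratin pair at least 3 times the other, its basal to luminal ratio in Ctrl was 2.95.

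Ratios whose interval held 0 also changed sign: Apoc1 in immune cells kept its sign in 7 of 11 values, Apoe in basal cells in 8 of 13 and Apoe in immune cells in 7 of 13. For Apoe, Fgfr2 KO over Ctrl, the basal ratio was -0.24 as a mean over cells, 0.16 in marker-filtered classes, -0.45 with 2 Ptprc UMIs, 0.10 with pan-leukocyte cells counted as immune and 0.11 with 10 keratin UMIs per 10000. The luminal ratio was -1.63, -1.23, -1.47 and -1.56 under the last 4 of these, -0.085 without cells over 50000 UMIs and -0.74 without the top cell. The immune ratio was 0.26 without cells over 50000 UMIs, -0.078 as a mean over cells, -0.12 in marker-filtered classes, 0.40 with 2 Ptprc UMIs, -0.059 with pan-leukocyte cells, -0.43 without the top cell and -0.017 without cells over 25% mitochondrial UMIs.

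The class order of Apoe kept its sign under every alternative. Basal over luminal in Ctrl was 1.07 thinned, 0.84 as a mean over cells, 1.72 marker-filtered, 0.66 with 2 Ptprc UMIs, 1.82 with pan-leukocyte cells, 1.75 with 10 keratin UMIs, 1.66 with the 3 times limit and 1.37 with median-ratio normalization. In Fgfr2 KO it was 0.28 thinned, 1.21 without cells over 50000 UMIs, 0.18 as a mean over cells, 3.50 marker-filtered, 3.38 with pan-leukocyte cells, 3.42 with 10 keratin UMIs, 1.96 without the top cell and 1.98 with the 3 times limit. Basal over immune in Ctrl was -2.42 without cells over 50000 UMIs, -2.63 marker-filtered, -1.99 with 2 Ptprc UMIs, -2.06 with the 3 times limit and -2.36 with median-ratio normalization. In Fgfr2 KO it was -2.76 without cells over 50000 UMIs, -2.84 with 2 Ptprc UMIs, -1.99 with pan-leukocyte cells, -1.80 without the top cell and -2.04 with the 3 times limit. The cause of these shifts was not tested.

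Lipid genes at least 2-fold higher in Fgfr2 KO numbered 1 in basal cells, 3 with no minimum of 20 UMIs and 2 with median-ratio normalization, and 3 in immune cells, 5 with no minimum. Under the main setting 4.09% of all genes were higher in basal and 7.8% in immune cells. That share was not computed under the other settings, so nothing is read from these shifts. Apoc1 in Fgfr2 KO immune cells had no UMI left with 2 Ptprc UMIs or without the top cell, so that 4 values could not be had.

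No paired analysis was possible because each group was 1 library. The main limits are that single library per group, the 86 cells and the 1252189 UMIs of Fgfr2 KO, and the 4 Apoc1 UMIs in its immune cells. The marker-filtered classes were chosen after the data were seen.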

Other observations

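Keratin cells with 10 or more GFP UMIs, a transcript of the virus and of the recombined reporter, numbered 5 in Ctrl and 8 in Fgfr2 KO. They held 186 Apoe UMIs (3479 CPM) and 1 Apoc1 UMI in Ctrl, and 89 Apoe UMIs (393.2 CPM) and 17 Apoc1 UMIs (75.1 CPM) in Fgfr2 KO. The other 172 and 42 keratin cells had Apoe at 1298 and 1552 CPM and Apoc1 at 70.7 and 177.3 CPM.

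Keratin cells in which neither keratin pair exceeded the other by 3 times numbered 44 in Ctrl, where Apoc1 had 86 UMIs and stood at 93.7 CPM, between the basal and the luminal levels. In Fgfr2 KO such cells numbered 3 and had no Apoc1 UMI, where the upper bound of the 95% Poisson interval was 71.6 CPM.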
